A study of Homo sapiens with 6 samples.

Results

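The endoplasmic reticulum (ER) unfolded protein response was followed through 41 genes in human oral keratinocytes that had received cannabidiol (CBD) or vehicle. The genes were listed by symbol and function, no threshold on measured values entered the list, and all 41 were found among the 58735 genes of the deposited table. They comprise 7 sensors and transcription factors, 10 chaperones of the HSP70 and HSP90 systems with their helpers, 2 lectin chaperones, 8 enzymes of disulfide bond formation, 11 genes of ER-associated degradation (ERAD) and 3 of protein translocation and export. Of these, 40 had a mean of at least 1 FPKM (fragments per kilobase of gene, scaled to the library total) over the 6 libraries and were tested, among 12517 genes tested in all. The remaining gene, DERL3, lay below that level.

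All 6 libraries came from HOK-16B, an immortalized line of keratinocytes from the lining of the mouth. In both groups the cells were given an inflammatory stimulus according to the series description, 3 libraries after pretreatment with CBD, a non-intoxicating cannabis compound, and 3 after vehicle excipient alone. The labels name neither stimulus, dose nor time, and cells without the stimulus were not analysed here, so each value compares CBD with vehicle in stimulated cells. The free-text sample descriptions number the line differently in each sample, while the cell line tag is HOK-16B throughout. No label says that replicates were separate cultures, so the spread behind every p-value is that between these samples and may be technical. The number of gene-assigned fragments, recovered from the table, ranged from 18213784 to 22158614 per library, and the 41 genes took 0.727% to 0.777% of them. All 14 keratinocyte markers examined, KRT5, KRT14 and TP63 among them, had a mean of at least 1 FPKM. Of 22 markers of fibroblasts, immune cells, endothelial cells and melanocytes, 3 reached that level (COL1A1, CD14 and PMEL), each below 10 FPKM in every library, and PDGFRA, CD3E and TYR were at 0 in all 6. The summed levels of the 14 keratinocyte markers (10497 to 12318 FPKM with vehicle, 12855 to 13447 with CBD) and of the 8 fibroblast markers, nearly all COL1A1 (7.40 to 8.14 and 9.31 to 9.41 FPKM), did not overlap between groups, and their part in the results was not tested. Below, values of single libraries are in the order of replicates 1 to 3.

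The unfolded protein response is the programme by which cells match the folding capacity of the ER to the load of secreted and membrane proteins. Its known arms are each begun by a sensor in the ER membrane: IRE1 (encoded by ERN1), which splices XBP1 mRNA into the form that encodes an active transcription factor, ATF6, which is cut to release a transcription factor, and PERK (EIF2AK3), which slows translation and favours ATF4. Their targets include the chaperone BiP (HSPA5), the disulfide isomerases and the ERAD machinery, which returns misfolded proteins to the cytosol for destruction. Keratinocytes are known to use this programme during differentiation and under inflammatory stress.

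ATF6 and spliced XBP1 act through short promoter sequences, and these are shown for 4 genes whose levels are described below, because they include the sequences through which ER stress is known to act on transcription. The ER stress element (ERSE) was searched as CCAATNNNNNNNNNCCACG, its second form (ERSE-II) as ATTGGNCCACG and the UPR element as TGACGTGG, each on both strands in the RefSeq promoter windows (GRCh38.p14), 250 bases before to 50 after a gene's start. Each line gives the 200 bases before the start, 5′ to 3′ on the gene's strand, with capitals for exact matches to ERSE in HSPA5, XBP1 and HSP90B1 and to ERSE-II in HERPUD1. The windows are chr9:125241344-125241543 (minus strand), chr22:28800570-28800769 (minus strand), chr12:103930210-103930409 (plus strand) and chr16:56931942-56932141 (plus strand). By GENCODE 29 the HSPA5 window lies upstream of the gene, those of XBP1 and HERPUD1 reach into the gene's first bases, and that of HSP90B1 lies inside the gene span, whose annotated start is further upstream.
HSPA5: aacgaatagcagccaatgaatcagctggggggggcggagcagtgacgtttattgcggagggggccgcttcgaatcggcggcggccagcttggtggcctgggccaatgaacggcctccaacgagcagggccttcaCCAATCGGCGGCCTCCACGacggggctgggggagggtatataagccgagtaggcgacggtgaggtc
XBP1: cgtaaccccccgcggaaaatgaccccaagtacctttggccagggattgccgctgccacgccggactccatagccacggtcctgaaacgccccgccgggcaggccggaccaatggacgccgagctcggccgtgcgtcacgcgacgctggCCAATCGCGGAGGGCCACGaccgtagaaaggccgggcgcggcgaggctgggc
HSP90B1: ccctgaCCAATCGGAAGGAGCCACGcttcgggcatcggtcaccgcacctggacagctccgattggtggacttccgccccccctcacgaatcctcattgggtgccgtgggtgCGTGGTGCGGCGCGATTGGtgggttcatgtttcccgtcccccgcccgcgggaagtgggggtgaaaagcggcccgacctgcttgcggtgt
HERPUD1: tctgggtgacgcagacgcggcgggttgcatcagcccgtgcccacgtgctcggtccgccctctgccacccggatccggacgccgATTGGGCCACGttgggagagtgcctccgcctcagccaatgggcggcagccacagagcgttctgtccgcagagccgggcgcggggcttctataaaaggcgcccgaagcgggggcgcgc
The match begins 66 bases before the start in HSPA5, 52 in XBP1 and 117 in HERPUD1. HSP90B1 has a match at 194 bases and another, in reverse orientation, at 89.

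Windows were found for 37 of the 41 genes, 46 windows in all since some genes have several starts. An ERSE match lay in 8 of the 37 genes and 10 of their 46 windows (CALR, CANX, CRELD2, ERO1B, HSP90B1, HSPA5, PDIA6 and XBP1), whereas 0.0769% of all 35116 promoter windows, 27 in number, held one. The matching CANX windows overlap and hold the same site, 9, 151 and 189 bases before their starts. All 46 windows are among the 35116 and the genes were listed by function, so this contrast is a description and was not tested. ERSE-II matched in HERPUD1, HYOU1 and SDF2L1, and in 0.0541% of all windows. The UPR element matched in DNAJC10, HYOU1 and TXNDC5, and in 0.729% of all windows. In HYOU1 it overlaps an ERSE-II match. Their shorter parts are common: CCAAT lay in 31 of the 37 genes and 34.6% of all windows, and CCACG in 28 genes and 38.1% of all windows. A match is a description of the letters and not a measured binding site.

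None of the 40 tested genes passed the test between CBD and vehicle (limma on log2(FPKM + 1), Benjamini-Hochberg adjusted p under 0.05 over all 12517 genes), where 0.352% of all tested genes did. The smallest adjusted p among them was 0.0608, for HERPUD1. At an unadjusted p under 0.05 by limma, 5 were higher and 10 lower with CBD, together 37.5% against 31.4% of all tested genes (15.4% higher and 16.0% lower). In 21 of the 40 the groups of 3 libraries were apart, 8 with CBD above and 13 with CBD below, or 52.5% where the background was 40.7% (18.7% above and 21.9% below). For groups of this size an exact permutation test, two-sided, cannot go below 0.1, the value of each of these 21. The median log2 difference of the 40 was -0.03, beside -0.01 for all tested genes, and 18 lay above 0 and 22 below. The ratio of the CBD mean to the vehicle mean ran from 0.782 (DNAJC10) to 1.38 (TXNDC5), so no tested gene of the response differed by 1.5-fold. In bulk RNA of this kind fewer expressing cells and less RNA per cell cannot be told apart.

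Other settings called some of these genes. With limma-voom on the recovered fragments, 1 passed as higher (HERPUD1) and 6 as lower (HSPA5, HSP90B1, CANX, DNAJC10, XBP1 and ATF6), where 13.7% of all tested genes passed, 7.67% higher and 6.06% lower. Without vehicle replicate 2 by limma, HERPUD1 and CRELD2 passed as higher and 8 as lower (those 6 with SEL1L and ERO1A), where 18.8% of all tested genes passed, 10.1% higher and 8.66% lower. Restricting the test to genes with a mean of at least 5 FPKM called HERPUD1 as higher and CANX as lower, where 10.1% passed, 5.87% higher and 4.19% lower. Library weights, which gave vehicle replicate 3 89.75% of the vehicle group's weight and whose estimation did not converge, called 9 as higher and 14 as lower, where 44.5% passed, 21.7% higher and 22.9% lower.

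Transcript GC content moved with the groups, its mean over fragments being 49.97% ± 0.386 in vehicle and 50.7% ± 0.0437 in CBD libraries (SD, n = 3). Once the dependence on GC content was removed within every library, 0 of the 40 passed by limma, where 0.0399% of all tested genes passed, 0.024% higher and 0.016% lower. At an unadjusted p under 0.05 by limma there were 8, beside 18.2% of all tested genes (8.6% higher and 9.59% lower). For the genes with values in every library, differences with that trend removed are given beside those from the deposited values, the plot of differences by role shows both for all 40, and the part of GC content in them was not tested.

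**Figure D1:**
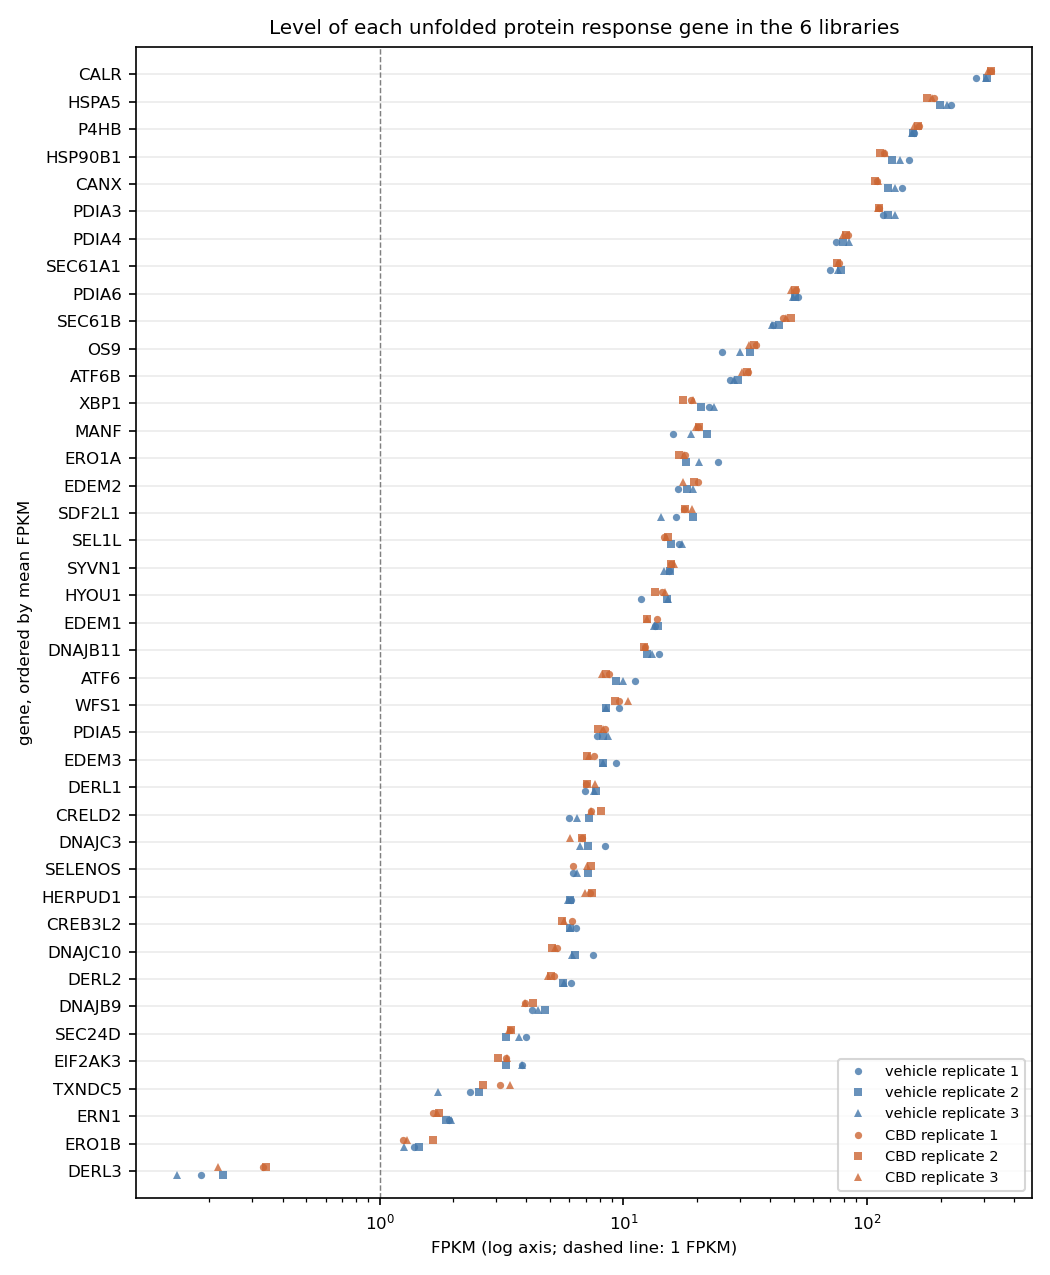
Each row is a gene of the response, ordered by mean level, and each point a library: FPKM on a log axis, vehicle in blue below the row's line and CBD in orange above it, with a marker shape for each replicate number. Levels ran from 309 FPKM for CALR to 0.242 FPKM for DERL3, and within a gene the 6 libraries lay close together against that range.

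Levels per length differed far more between genes than between groups. By mean FPKM over the 6 libraries CALR (309) was highest, followed by HSPA5 (197), P4HB (157), HSP90B1 (126), CANX (120.0) and PDIA3 (117). HSP90B1 was above CANX and PDIA3 within each of the 6 libraries. CANX was above PDIA3 in the 3 vehicle libraries and below it in the 3 CBD libraries. The margins were small in vehicle replicates 2 (122.094 against 122.041 FPKM) and 3 (130.24 against 130.165 FPKM), and this change of order was not tested. The sensors lay far lower, with ATF6 at 9.31, EIF2AK3 at 3.44 and ERN1 at 1.82 FPKM. DERL3, a derlin of the ERAD pathway, had 0.184, 0.228 and 0.148 FPKM with vehicle and 0.331, 0.341 and 0.217 FPKM with CBD, from 11 to 19 and 17 to 30 fragments. The groups overlapped, and without the filter on low values its log2 difference was 0.13 (limma adjusted p = 0.400). Between replicates, the vehicle libraries spread more widely: the median coefficient of variation of the tested response genes was 6.17% in vehicle and 3.26% in CBD libraries. This was not particular to the response, as the vehicle SD was the larger in 77.5% of these genes and in 72.3% of all tested genes. Vehicle replicate 1 was the vehicle library farthest from the CBD mean in 24 of the 40 genes, replicate 3 in 13 and replicate 2 in 3.

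Among the sensors and transcription factors, 0 of 7 passed the test. In 3 (XBP1, ATF6 and ERN1) every CBD library lay below every vehicle library, as in 21.9% of all tested genes. ATF6B had every CBD library above, as had 18.7% of all tested genes. XBP1 (ENSG00000100219, chromosome 22, 28794555 to 28800597, GENCODE 29 on GRCh38), the factor made from the mRNA that IRE1 splices, had 22.3, 20.7 and 23.4 FPKM with vehicle and 18.9, 17.5 and 19.3 FPKM with CBD. All 3 CBD values lay below the lowest vehicle value, a log2 difference of -0.24 ± 0.06 (SE; 95% interval -0.39 to -0.09; limma adjusted p = 0.0763) and -0.21 with the GC trend removed. The value is a sum over transcripts, so spliced and unspliced XBP1 mRNA are not separated. ATF6, the sensor that is cut to give a transcription factor, had 11.2, 9.34 and 9.98 FPKM with vehicle and 8.73, 8.52 and 8.15 FPKM with CBD. Its groups did not overlap, and vehicle replicate 1 was the highest of the 6, with a log2 difference of -0.24 ± 0.07 (SE; limma adjusted p = 0.0884) that stood at -0.10 with the GC trend removed.

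ATF6B, the close relative of ATF6, lay the other way, with 27.4, 29.4 and 28.3 FPKM with vehicle and 32.4, 32.0 and 30.6 FPKM with CBD, a log2 difference of 0.15 ± 0.05 (SE; limma adjusted p = 0.0982) and 0.03 with the GC trend removed. ERN1, which encodes the sensor IRE1, had 1.93, 1.87 and 1.97 FPKM with vehicle and 1.66, 1.75 and 1.71 FPKM with CBD. These low levels rested on 384 to 479 fragments per library, and although the groups did not overlap the interval of the difference spanned 0 (-0.11; 95% interval -0.27 to 0.05), and it was -0.15 with the GC trend removed. EIF2AK3, which encodes PERK, had 3.83, 3.29 and 3.83 FPKM with vehicle and 3.31, 3.05 and 3.34 FPKM with CBD, and the groups overlapped. Its log2 difference was -0.13 ± 0.07 (SE; limma adjusted p = 0.236), and -0.01 with the GC trend removed. CREB3L2, a membrane-bound factor related to ATF6, stood at 6.15 ± 0.182 and 5.82 ± 0.280 FPKM in vehicle and CBD libraries, and WFS1, the ER membrane protein wolframin, at 8.84 ± 0.622 and 9.77 ± 0.619 FPKM (SD, n = 3), with overlapping groups in both.

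**Figure D2:**
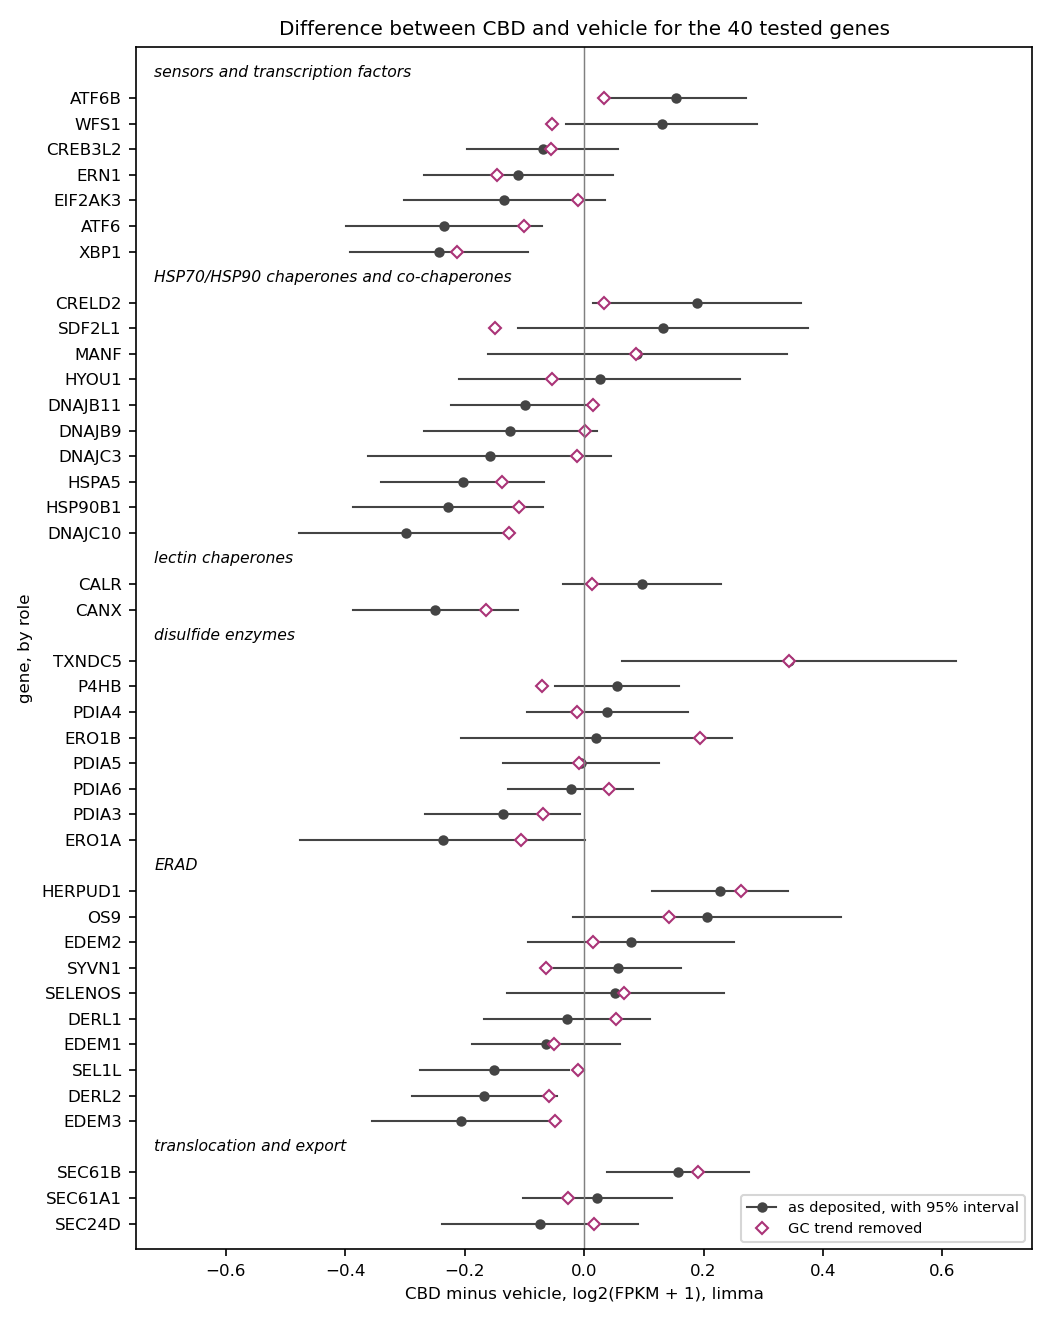
For the 40 tested genes, grouped by role, filled circles give the limma difference between CBD and vehicle on the log2(FPKM + 1) scale with its 95% interval, and open diamonds the difference with the GC trend removed. In each of the 6 roles differences lie on both sides of 0, from -0.30 for DNAJC10 to 0.34 for TXNDC5.

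Of the 10 chaperones and helpers, 0 passed. In 4 (HSPA5, HSP90B1, DNAJC10 and DNAJB11) every CBD library lay below every vehicle library, beside 21.9% of all tested genes. CRELD2 had every CBD library above, beside 18.7% of all tested genes. HSPA5 (ENSG00000044574, chromosome 9, 125234853 to 125241330) encodes BiP, the ER member of the HSP70 family, which also holds the sensors inactive. It had 221, 198 and 212 FPKM with vehicle and 187, 176 and 185 FPKM with CBD, the CBD values all below the vehicle values. The log2 difference was -0.20 ± 0.06 (SE; 95% interval -0.34 to -0.07; limma adjusted p = 0.0849), and -0.14 with the GC trend removed. Over the 19 alternatives run it ranged from -0.25 to -0.12 and passed in 3. HSP90B1 (ENSG00000166598, chromosome 12, 103930107 to 103953645), the ER member of the HSP90 family, had 148, 126 and 136 FPKM with vehicle and 117, 113 and 118 FPKM with CBD, again without overlap. An annotated neighbour, C12orf73, overlaps it. Its log2 difference of -0.23 ± 0.07 (SE; limma adjusted p = 0.0883) was -0.11 with the GC trend removed.

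DNAJC10, an ER reductase that works with BiP, had 7.52, 6.30 and 6.16 FPKM with vehicle and 5.34, 5.07 and 5.23 FPKM with CBD, with vehicle replicate 1 the highest. Its log2 difference of -0.30 ± 0.08 (SE; limma adjusted p = 0.0738) went to -0.13 with the GC trend removed, its transcripts having a GC content of 37.5%. The other J-domain partners of BiP stood at 4.495 ± 0.280 and 4.04 ± 0.180 FPKM for DNAJB9, 13.2 ± 0.731 and 12.2 ± 0.0366 FPKM for DNAJB11 and 7.40 ± 0.880 and 6.51 ± 0.428 FPKM for DNAJC3 in vehicle and CBD libraries (SD, n = 3). For these the log2 differences were -0.12, -0.10 and -0.16, and 0.00, 0.02 and -0.01 with the GC trend removed. CRELD2, an ER-resident target of ATF6, stood at 6.55 ± 0.628 and 7.59 ± 0.402 FPKM, with a log2 difference of 0.19 ± 0.07 (SE; limma adjusted p = 0.137) that was 0.03 with the GC trend removed. SDF2L1, a BiP cofactor, stood at 16.7 ± 2.55 and 18.3 ± 0.805 FPKM, and MANF, a secreted ER stress factor, at 19.0 ± 3.07 and 20.1 ± 0.370 FPKM. HYOU1, the large ER chaperone that exchanges BiP's nucleotide, stood at 14.0 ± 1.97 and 14.2 ± 0.669 FPKM. The groups overlapped in SDF2L1, MANF and HYOU1.

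The lectin chaperones bind the same glucosylated N-glycans and had opposite signs. CANX, the membrane-bound calnexin (ENSG00000127022, chromosome 5, 179678628 to 179730925), had 139, 122 and 130.2 FPKM with vehicle and 110.1, 108 and 110.5 FPKM with CBD, with all CBD values below the vehicle values, and it overlaps the annotated gene CBY3. Its log2 difference was -0.25 ± 0.06 (SE; 95% interval -0.39 to -0.11; limma adjusted p = 0.0670), ran from -0.30 to -0.14 over the 19 alternatives and was -0.16 with the GC trend removed. CALR, the soluble calreticulin, had 279.9, 309 and 307 FPKM with vehicle and 321, 323 and 314 FPKM with CBD. All CBD values lay above the vehicle values, the nearest by 309 against 314, and the log2 difference of 0.10 ± 0.06 (SE; limma adjusted p = 0.268) was 0.01 with the GC trend removed, -0.03 after quantile normalization and -0.01 with the GC trend removed and vehicle replicate 1 left out. The difference between CANX and CALR in their response was not tested.

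Of the 8 disulfide enzymes 0 passed, with 4 differences above 0 and 4 below. TXNDC5, a thioredoxin-domain isomerase, had 2.35, 2.54 and 1.74 FPKM with vehicle and 3.11, 2.66 and 3.43 FPKM with CBD, from 150 to 325 fragments per library. It had the largest difference of the 40 genes, 0.34 ± 0.12 (SE; 95% interval 0.06 to 0.62; limma adjusted p = 0.111), and 0.34 with the GC trend removed. The annotation holds a read-through gene that spans TXNDC5, BLOC1S5-TXNDC5, so the assignment of its reads is uncertain. PDIA3, the isomerase that works with calnexin and calreticulin, had 116, 122 and 130.2 FPKM with vehicle and 111, 112 and 111 FPKM with CBD. The CBD values lay below the vehicle values, with a log2 difference of -0.14 ± 0.05 (SE; limma adjusted p = 0.145) and -0.07 with the GC trend removed. Its pseudogene copies PDIA3P1 and PDIA3P2 had means of 6.60 and 2.60 FPKM, and how reads were divided among them is uncertain.

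ERO1A, the oxidase that recharges protein disulfide isomerase, had 24.4, 18.05 and 20.4 FPKM with vehicle and 17.9, 16.8 and 17.7 FPKM with CBD. Vehicle replicate 1 was the highest and vehicle replicate 2 lay just above the highest CBD value. The log2 difference was -0.24 ± 0.10 (SE; limma adjusted p = 0.162), -0.11 with the GC trend removed and -0.13 without vehicle replicate 1. P4HB, the founding protein disulfide isomerase, stood at 154 ± 1.70 and 160.1 ± 3.54 FPKM and PDIA4 at 79.3 ± 4.84 and 81.5 ± 1.96 FPKM. PDIA6 stood at 50.8 ± 1.13 and 49.99 ± 1.13 FPKM, PDIA5 at 8.22 ± 0.437 and 8.18 ± 0.269 FPKM and the oxidase gene ERO1B at 1.36 ± 0.0965 and 1.40 ± 0.221 FPKM (SD, n = 3), the log2 differences of these 5 lying between -0.02 and 0.05. For P4HB the CBD values lay just above the vehicle values, while the groups of PDIA4, PDIA5, PDIA6 and ERO1B overlapped.

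ERAD had 10 tested genes, of which 0 passed. In 2 (HERPUD1 and SYVN1) every CBD library lay above every vehicle library, where 18.7% of all tested genes did. In 3 (EDEM3, DERL2 and SEL1L) every CBD library lay below, where 21.9% of all tested genes did. HERPUD1 (ENSG00000051108, chromosome 16, 56932048 to 56944863) encodes HERP, a membrane protein that organises the HRD1 ubiquitin ligase complex. It had 6.12, 6.05 and 5.95 FPKM with vehicle and 7.31, 7.46 and 6.97 FPKM with CBD. The vehicle values lay close together and all CBD values were higher, with a log2 difference of 0.23 ± 0.05 (SE; 95% interval 0.11 to 0.34; limma adjusted p = 0.0608). With the GC trend removed it was 0.26 (limma adjusted p = 0.0824), and over the 19 alternatives it ran from 0.21 to 0.27 and passed in 4.

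EDEM3, a mannosidase that marks misfolded glycoproteins, had 9.35, 8.23 and 8.22 FPKM with vehicle and 7.61, 7.11 and 7.22 FPKM with CBD, and its log2 difference of -0.21 ± 0.06 (SE; limma adjusted p = 0.0919) was -0.05 with the GC trend removed. DERL2, a derlin of the retrotranslocation channel, had 6.08, 5.64 and 5.71 FPKM with vehicle and 5.19, 5.07 and 4.93 FPKM with CBD, a log2 difference of -0.17 ± 0.05 (SE; limma adjusted p = 0.0948) and -0.06 with the GC trend removed. In both the groups did not overlap and vehicle replicate 1 was highest. SEL1L, the adaptor of HRD1, stood at 16.7 ± 0.886 and 14.9 ± 0.271 FPKM (log2 difference -0.15, -0.01 without the GC trend), and SYVN1, the HRD1 ligase itself, at 15.2 ± 0.431 and 15.8 ± 0.278 FPKM. OS9, a lectin that delivers substrates to HRD1, stood at 29.5 ± 3.99 and 34.0 ± 1.03 FPKM and its groups overlapped. EDEM1 (13.5 ± 0.249 and 12.9 ± 0.681 FPKM), EDEM2 (18.05 ± 1.29 and 19.1 ± 1.34 FPKM), DERL1 (7.41 ± 0.412 and 7.25 ± 0.340 FPKM) and SELENOS (6.61 ± 0.506 and 6.90 ± 0.589 FPKM) overlapped as well (SD, n = 3).

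For translocation and export, 0 of 3 passed. SEC61B, the beta subunit of the Sec61 channel through which new proteins enter the ER, had 41.2, 43.3 and 40.8 FPKM with vehicle and 45.1, 48.7 and 46.4 FPKM with CBD. The CBD values lay above the vehicle values, with a log2 difference of 0.16 ± 0.05 (SE; limma adjusted p = 0.0993) and 0.19 with the GC trend removed. SEC61A1, which encodes the pore of the same channel, had 70.1, 77.7 and 76.1 FPKM with vehicle and 76.6, 75.0 and 75.6 FPKM with CBD, and SEC24D, a cargo adaptor of the COPII coat, had 3.99, 3.29 and 3.71 FPKM with vehicle and 3.43, 3.45 and 3.40 FPKM with CBD. The groups overlapped in both, with log2 differences of 0.02 ± 0.05 and -0.07 ± 0.07 (SE), or -0.03 and 0.02 with the GC trend removed.

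Summed over each role, levels differed little. The chaperone group had 454, 419 and 433 summed FPKM with vehicle and 392, 377 and 392 with CBD, without overlap, and HSPA5 and HSP90B1 carried most of that sum. Translocation and export had 115, 124 and 121 against 125, 127 and 125 summed FPKM, with CBD above. Of its 3 genes only SEC61B (means of 41.8 and 46.7 FPKM) had groups apart. SEC61A1, which carried most of the sum, stood at 74.7 and 75.8 FPKM and SEC24D at 3.67 and 3.42 FPKM. Sensors, lectin chaperones, disulfide enzymes and ERAD overlapped between the groups. All 41 genes together had 1633 ± 14.8 summed FPKM in vehicle and 1585 ± 14.1 in CBD libraries (SD, n = 3), with every CBD sum below every vehicle sum. Abundant genes weigh most in this sum, and 18 of the 40 tested genes lay above 0. Mean FPKM with vehicle and CBD was 211 and 183 for HSPA5, 137 and 116 for HSP90B1 and 131 and 110 for CANX. For CALR it was 299 and 319, the other way. Sums with the GC trend removed were not made.

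**Figure D3:**
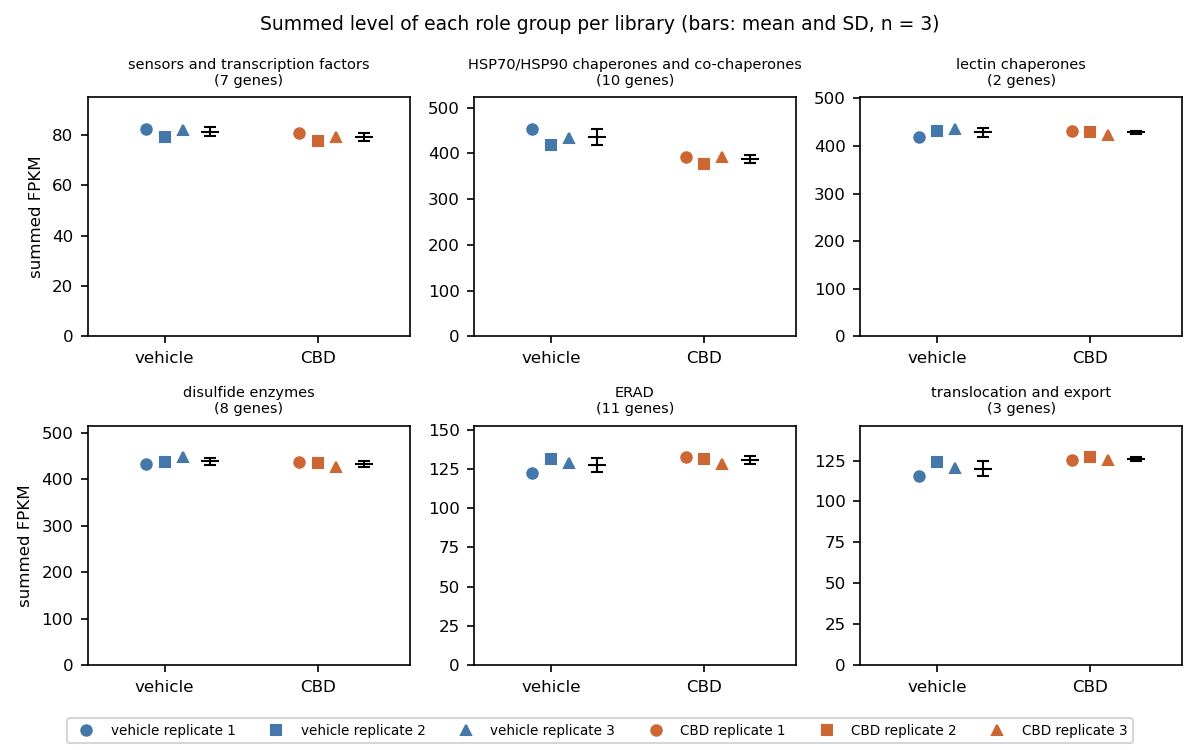
Each panel gives the summed FPKM of a role group in the 3 vehicle (blue) and 3 CBD (orange) libraries, with the mean and SD beside them and axes that start at 0. Only the panels of the HSP70 and HSP90 chaperones, lower with CBD at 387 against 435, and of translocation and export, higher at 126 against 120.1, show groups that do not overlap.

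The sign of a gene's difference went with the GC content of its transcripts, a feature that the choice of genes did not use. Of the 21 genes below the median GC content of all tested genes (48.9%), 18 had a difference below 0, with a median of -0.15. Of the 19 at or above it, 15 had a difference above 0, with a median of 0.06. Across the 40 genes, which share the 6 libraries and are not independent, the Spearman correlation of the difference with GC content was 0.74, and across all tested genes with a GC value it was 0.67. With the GC trend removed the medians were -0.01 in both sets. The removal draws such medians towards 0 by design, so their meeting is not a result about these genes. With it 12 of the 40 genes changed sign: WFS1, SDF2L1, HYOU1, DNAJB9, DNAJB11, P4HB, PDIA4, PDIA6, SYVN1, DERL1, SEC61A1 and SEC24D. Of these, HYOU1, PDIA6, DERL1 and SEC61A1 had differences between -0.03 and 0.03 from the deposited values. The genes that had an unadjusted p under 0.05 by limma with the GC trend removed were 8, where 18.2% of all tested genes did (8.6% higher and 9.59% lower): HERPUD1, SEC61B and TXNDC5 as higher and CANX, XBP1, HSPA5, DNAJC10 and HSP90B1 as lower.

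**Figure D4:**
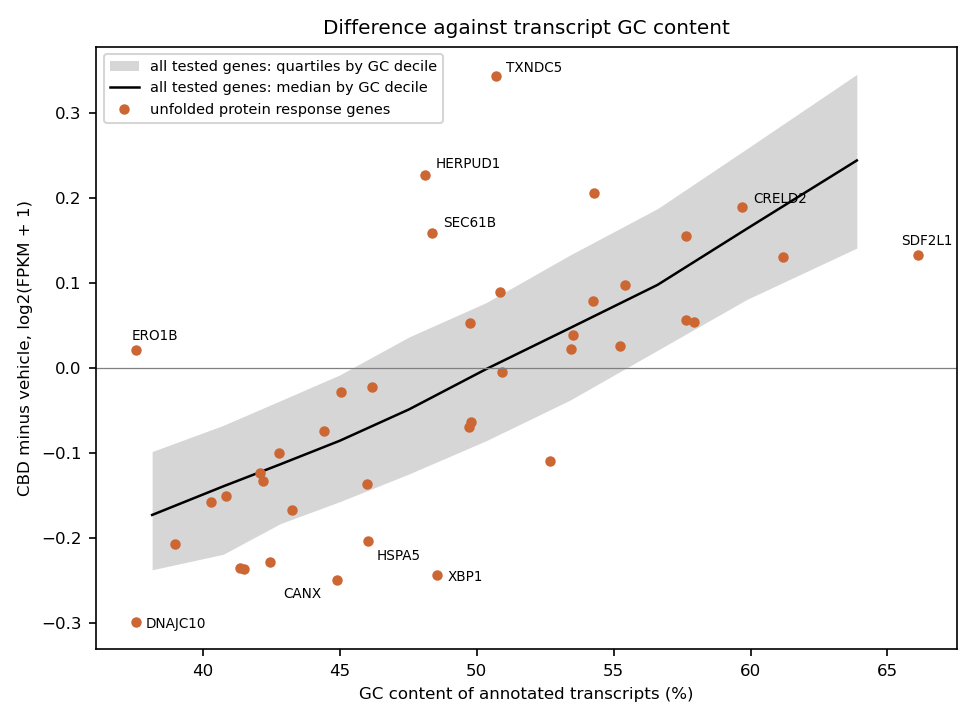
Orange points are the 40 tested genes, plotted by the GC content of their annotated transcripts (%) and their difference between CBD and vehicle on the log2(FPKM + 1) scale. The line and grey band give the median and quartiles of all tested genes in deciles of GC content, from -0.17 in the lowest decile to 0.24 in the highest. Genes outside the band include HERPUD1, SEC61B, TXNDC5 and OS9 above it and XBP1, HSPA5, CANX, HSP90B1, ATF6, ERO1A and ERN1 below it.

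Genes with an ERSE match in their promoter did not share a direction. Of these 8, CANX, HSPA5, HSP90B1 and XBP1 had every CBD library below every vehicle library (21.9% of all tested genes did). CALR and CRELD2 had every CBD library above (18.7% of all tested genes), and PDIA6 and ERO1B overlapped. Their median log2 difference was -0.11, beside 0.02 for the 29 tested genes whose windows held none, and with the GC trend removed these were -0.05 and -0.01. The 3 genes with an ERSE-II match, HERPUD1, HYOU1 and SDF2L1, had differences of 0.23, 0.03 and 0.13, and of 0.26, -0.05 and -0.15 with the GC trend removed.

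Genes that surround the response were described from 8 further lists, 131 genes in all, of which 124 were tested and 0 passed by limma. At an unadjusted p under 0.05 by limma were 43, 14 higher and 29 lower, or 34.7% against 31.4% of all tested genes, and 49.2% had no overlap between groups against 40.7%. In the PERK arm and integrated stress response 0 of 19 tested genes passed, with a median difference of -0.03, 4 higher and 4 lower at an unadjusted p under 0.05 by limma. Differences ran from -0.34 for TRIB3 to 0.57 for DDIT4. TRIB3, a pseudokinase induced through ATF4 and CHOP, stood at 9.41 ± 0.769 and 7.21 ± 0.145 FPKM in vehicle and CBD libraries (SD, n = 3; limma adjusted p = 0.0574). EIF2S1, the translation factor that PERK phosphorylates, stood at 33.5 ± 2.16 and 27.2 ± 1.12 FPKM (limma adjusted p = 0.0608). In both, every CBD value lay below every vehicle value, and with the GC trend removed the differences were -0.53 and -0.13. The 4 higher genes, named after their values were seen, were the stress-induced gene DDIT4 at 80.2 ± 21.7 and 116 ± 4.59 FPKM (log2 difference 0.57, 0.38 without the GC trend), the transcription factor gene CEBPB at 88.8 ± 16.6 and 124 ± 1.47 FPKM (log2 difference 0.50, 0.21 without the GC trend), NUPR1 at 6.38 ± 1.61 and 8.54 ± 0.309 FPKM (log2 difference 0.40, 0.37 without the GC trend) and DDIT3, which encodes CHOP, at 5.75 ± 0.506 and 6.71 ± 0.404 FPKM (log2 difference 0.19, 0.20 without the GC trend). CBD values lay above the vehicle values in DDIT4, CEBPB and NUPR1 and overlapped them in DDIT3. Vehicle replicate 1 was the lowest vehicle library in these 4, in DDIT4 at 56.2 FPKM against 98.4 and 85.9. EIF2AK2 and SLC7A11 were also lower at an unadjusted p under 0.05 by limma, without overlap. They stood at 41.4 ± 2.80 and 34.9 ± 1.44 FPKM and at 3.94 ± 0.211 and 3.22 ± 0.126 FPKM. Their log2 differences were -0.24 and -0.23, or -0.09 and -0.04 without the GC trend. ATF4 stood at 89.5 ± 7.67 and 90.0 ± 1.40 FPKM, with overlap. The list of genes that process IRE1 and ATF6 signals had a median of 0.00, and NFYA, a subunit of the CCAAT-binding factor, stood at 12.3 ± 1.10 and 10.6 ± 0.379 FPKM (log2 difference -0.20, -0.15 without the GC trend). MBTPS2, a protease that cuts ATF6, stood at 4.27 ± 0.417 and 3.67 ± 0.246 FPKM (log2 difference -0.17, -0.03 without the GC trend). Of the factors related to CREB3L2, CREB3 and CREB3L4 were tested, at 18.1 ± 0.576 and 18.9 ± 1.002 FPKM (log2 difference 0.06, -0.04 without the GC trend) and 3.27 ± 0.843 and 4.19 ± 0.219 FPKM (log2 difference 0.30, 0.22 without the GC trend).

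Genes of N-glycan attachment and the folding cycle had a median difference of -0.10 over 18 tested genes, and -0.01 with the GC trend removed. UGGT2, of the glycoprotein glucosyltransferase family, stood at 3.89 ± 0.170 and 3.14 ± 0.144 FPKM (log2 difference -0.24, -0.08 without the GC trend) and OSTC, an oligosaccharyltransferase subunit, at 33.4 ± 2.91 and 27.8 ± 0.836 FPKM (log2 difference -0.25, -0.13 without the GC trend) in vehicle and CBD libraries (SD, n = 3). Other folding enzymes had a median of 0.04 over 20 genes, with SIL1, a nucleotide exchange factor of BiP, at 6.52 ± 0.397 and 7.85 ± 0.524 FPKM (log2 difference 0.23, 0.15 without the GC trend) and the thioredoxin-related gene TMX3 at 11.4 ± 1.17 and 9.53 ± 0.136 FPKM (log2 difference -0.24, -0.07 without the GC trend). The rest of the ERAD machinery had a median of -0.03 over 22 genes, with UBXN6, a cofactor of VCP, at 14.3 ± 1.37 and 17.8 ± 0.00941 FPKM (log2 difference 0.30, 0.07 without the GC trend) and the ubiquitin-conjugating enzyme gene UBE2K at 31.7 ± 1.64 and 27.4 ± 1.03 FPKM (log2 difference -0.20, -0.05 without the GC trend).

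The translocon, signal recognition and signal peptidase list had the lowest median of the 8, -0.17 over 21 tested genes with 18 below 0, its median GC content being 42.6%. SEC63, which recruits BiP to the channel, stood at 11.1 ± 0.730 and 9.19 ± 0.170 FPKM (log2 difference -0.25, -0.09 without the GC trend) and SSR4, a subunit of the translocon-associated complex, at 13.4 ± 0.920 and 16.4 ± 1.37 FPKM (log2 difference 0.28, 0.11 without the GC trend; SD, n = 3). With the GC trend removed the list's median was -0.03 and 16 lay below 0. The COPII coat had a median of -0.13 over 12 genes, and -0.03 with the trend removed, with SAR1B, the GTPase that starts coat assembly, at 5.54 ± 0.311 and 4.81 ± 0.139 FPKM (log2 difference -0.17, -0.04 without the GC trend) and SEC23B at 20.4 ± 2.33 and 17.4 ± 0.800 FPKM (log2 difference -0.21, -0.16 without the GC trend).

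**Figure D5:**
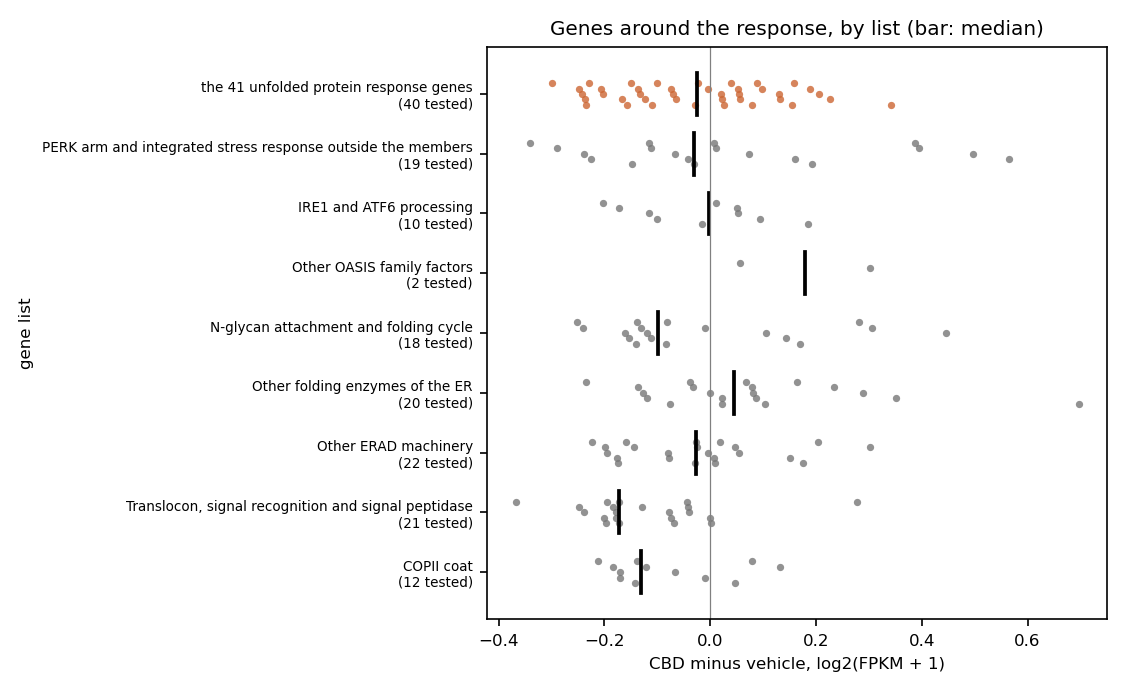
Each point is a tested gene, in rows by list, with its difference between CBD and vehicle on the log2(FPKM + 1) scale, and a bar marks the median of each list. The response genes (orange) centre at -0.03, and the medians of the surrounding lists run from -0.17 for the translocon to 0.18 for the 2 tested OASIS family factors.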

How the data were processed

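The authors deposited a table of FPKM values, 1 column per library without pooling per the file headers. Alignment used HISAT2 2.0.5 and counting featureCounts 1.5.0-p3, per the submitters' processing notes. Genome build, annotation, strand setting and filters are not given in the sources used here. As a unit, FPKM corrects for gene length and library total, not for GC content. All 58735 gene identifiers were found in GENCODE 29 (GRCh38). FPKM times exon-union length gave whole fragments for 100% of values above 0 (tolerance 0.01), so depth was recovered: the limit that a count of 0 allows, 3 fragments, is 0.126 to 0.153 FPKM at 1 kb of exon (counting error only).

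Differences were fitted on log2(FPKM + 1), which understates changes of low genes, for the genes whose mean was at least 1 FPKM. The fit used limma 3.58.1 in R 4.3.3, group as the only term, an intensity trend, two-sided tests and Benjamini-Hochberg adjustment at 0.05. The script was run on simulated counts, where it recovered 87.76% of 1.5-fold and 96.91% of 2-fold changes and called 11 unchanged genes among 12782 tested. That simulation held no GC trend, no smaller changes and the same dispersion in every library. It therefore does not show how well differences of the size seen here are found. GC content was taken over all annotated transcripts of a gene and removed by loess (span 0.3). Every gene was described by role. Values in each library were printed for the 3 sensors, XBP1, HSPA5 and the 3 genes per role with the smallest p, and outside the list the 2 smallest p per list were named. In the PERK arm list ATF4 and the further genes at an unadjusted p under 0.05 by limma were named as well, after their values were seen. DERL3's values were added. No measured value set membership, but the response and all lists were chosen with earlier results of these data known. Of the tested genes 12 overlap the span of another annotated gene with a mean of at least 1 FPKM, HSP90B1, CANX, DERL2, CRELD2, SEC61A1, SYVN1, DNAJB9, DNAJB11, PDIA5, EDEM2, DERL1 and ERO1B. Spans include introns, and whether exons are shared was not examined. Where they are, the assignment of reads is uncertain. Protein sequences were not used here. Alternatives covered pseudocount, filter, scaling, variance prior, weights, replicate block, a count model, GC content and each library. Tables were made in Python 3.11.15 (pandas 2.3.3, numpy 2.4.6) and plots in matplotlib 3.10.9.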

Additional observations from a re-analysis of the deposited data

How the results depend on the processing

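Against 44 genes called over the whole table and 0 of the 40 tested response genes, the counts were 732 and 2 at a mean FPKM of at least 5, 1719 and 7 with limma-voom on recovered fragments, and 5574 and 23 with library weights, whose estimation did not converge and which rest mainly on vehicle replicate 3 in that group. With 0 response genes called, the whole-table count was 73 after quantile normalization, 61 with median-ratio scaling, 5 with the GC trend removed, 1 without an intensity trend and 0 without a filter on low values (4670 at an unadjusted p under 0.05). Leaving out a library gave 0 to 2351 genes and 0 to 10 response genes by limma: 2351 and 10 without vehicle replicate 2, and with 0 response genes 81 without vehicle replicate 1, 1 without CBD replicate 3 and 0 when vehicle replicate 3 or either of CBD replicates 1 and 2 was left out (2943, 2594 and 2454 at an unadjusted p under 0.05). With the replicate number as a block 0 genes were called (3676 at an unadjusted p under 0.05 by limma), and also 0 with the block and the GC trend removed. Same-numbered libraries deviated together at correlations of -0.0027, 0.0524 and 0.0235, and not every library correlated best with its own number, so the numbers were not taken as pairs. Removing the GC trend with vehicle replicate 1 left out, chosen after seeing the data, called 0 genes. The median over the response genes was -0.0254 in the main fit and ran from -0.0539 to -0.0121 over the 19 alternatives. Each shift from the main value was smaller than the SD of that median between libraries, 0.0458. That SD is a spread between single libraries and not the error of a difference between groups. The main value was itself smaller in size, so the SD cannot show whether a shift matters. Of 754 pairs of a gene and an alternative, 56 changed sign with no call on either side and 42 became called. A quasi-likelihood count test on the recovered fragments was planned and not run.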
